A study of Mus musculus with 8 samples.

Results

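The data describe 10 genes of the oxygen-sensing pathway in undifferentiated pleomorphic sarcoma (UPS) of the mouse hind limb: the HIF subunits Epas1, Hif1a, Hif3a, Arnt and Arnt2, the ubiquitin ligase subunit Vhl, the prolyl hydroxylases Egln1, Egln2 and Egln3, and the asparaginyl hydroxylase Hif1an. They were taken by gene symbol from the 26667 genes of the counts table, by a rule that uses no measured value, and all 10 were among the 14867 genes that passed the filter on low counts. RNA was sequenced from 4 KP tumours (KP 5 to KP 8; Trp53 fl/fl) and 4 KPH2 tumours (KPH2 1 to KPH2 4; the same plus Epas1 fl/fl), 1 library per tumour. All mice were of mixed 129 and C57BL/6 background, males and females at least 8 weeks old, and received adenovirus expressing Cre recombinase (Ad-Cre) in the muscle of the right hind limb. Mice were killed at 7 weeks from the injection or once a tumour was as large as permitted. The controls thus lack Trp53 as the KPH2 tumours do. Ad-Cre recombines only the cells it infects, and a tumour section also holds host cells such as vessels and macrophages. Which cells of the KPH2 sections had recombined Epas1 was not measured in these data. KPH2 1 is absent from the authors' table of normalized values for 7 tumours, and the study's methods leave out 1 knockout tumour as a technical outlier. It is therefore shown apart, and each comparison was made over the other 7 tumours and repeated over all 8. Where a group's values follow each other in a sentence they stand in the order of the tumour numbers.

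HIF is a dimer of an oxygen-regulated alpha subunit and a stable beta subunit (ARNT). In the presence of oxygen the EGLN enzymes hydroxylate prolines of the alpha subunits, VHL binds the hydroxylated protein, and the proteasome degrades it, while HIF1AN (factor inhibiting HIF) hydroxylates an asparagine that otherwise recruits coactivators. When oxygen falls the alpha subunit accumulates, pairs with ARNT and binds hypoxia response elements at genes of glycolysis, angiogenesis and the pathway's own feedback, Egln1 and Egln3 among them. The pathway is thus controlled largely at the level of protein, which transcript counts do not measure. In bulk tumour RNA, fewer cells of a type and less RNA per cell cannot be told apart.

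The question for these genes was whether deletion of Epas1, which encodes HIF-2α, left the rest of the pathway at its former transcript level. Epas1 was the sole member with an unadjusted p under 0.05 in edgeR's quasi-likelihood test, and its mean in KPH2 2 to KPH2 4 stood at 56.9% of the KP mean. Hif3a, Arnt2 and Egln3 had larger log2 fold changes, all above 1, with confidence intervals that included 0. Hif1a, Arnt and Egln2 differed by less than 0.3 on the log2 scale, and Vhl, Egln1 and Hif1an by between 0.2 and 0.6. No member had an adjusted p under 0.05 over the 7 tumours, where 1.96% of all tested genes were called, and none over all 8 tumours, where 0.00675% were called. At an unadjusted p under 0.05 the counts were 1 of 10 members over the 7 tumours, against 17.8% of all tested genes, and 1 of 10 over all 8, against 14.7%. DESeq2 called 1 member, Epas1, over the 7 tumours, against 6.97% of the genes it tested. The median log2 fold change of the 10 members was 0.14 over the 7 tumours and 0.10 over all 8, beside −0.02 and 0.01 for all tested genes.

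Library totals ran from 6463221 to 13155510 counts, and edgeR's estimate of the biological coefficient of variation was 0.313 without KPH2 1 and 0.347 with it. Of the 10 mesenchymal markers of sarcoma all were counted in every tumour, with Fn1 at 5465 CPM (counts per 1000000 of the TMM-normalized library size) or more and Col3a1 at 4336 CPM or more. The sections also held RNA of host tissue. The summed level of 16 skeletal muscle markers was 529 to 1245 CPM in KP, 1278 to 6084 CPM in KPH2 2 to KPH2 4 and 508 CPM in KPH2 1, and all 16 had an unadjusted p under 0.05 in the 7-tumour test, with 1 of them (Neb, adjusted p = 0.043) past the adjustment. Neb and Myh4, which encode the giant protein nebulin and a fast myosin heavy chain, had log2 fold changes of 2.23 and 1.61. Of the mesenchymal markers 1 was called lower (Pdgfra, named after its value was seen), 0 were called higher, and the median log2 fold change was −0.28.

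**Figure D1:**
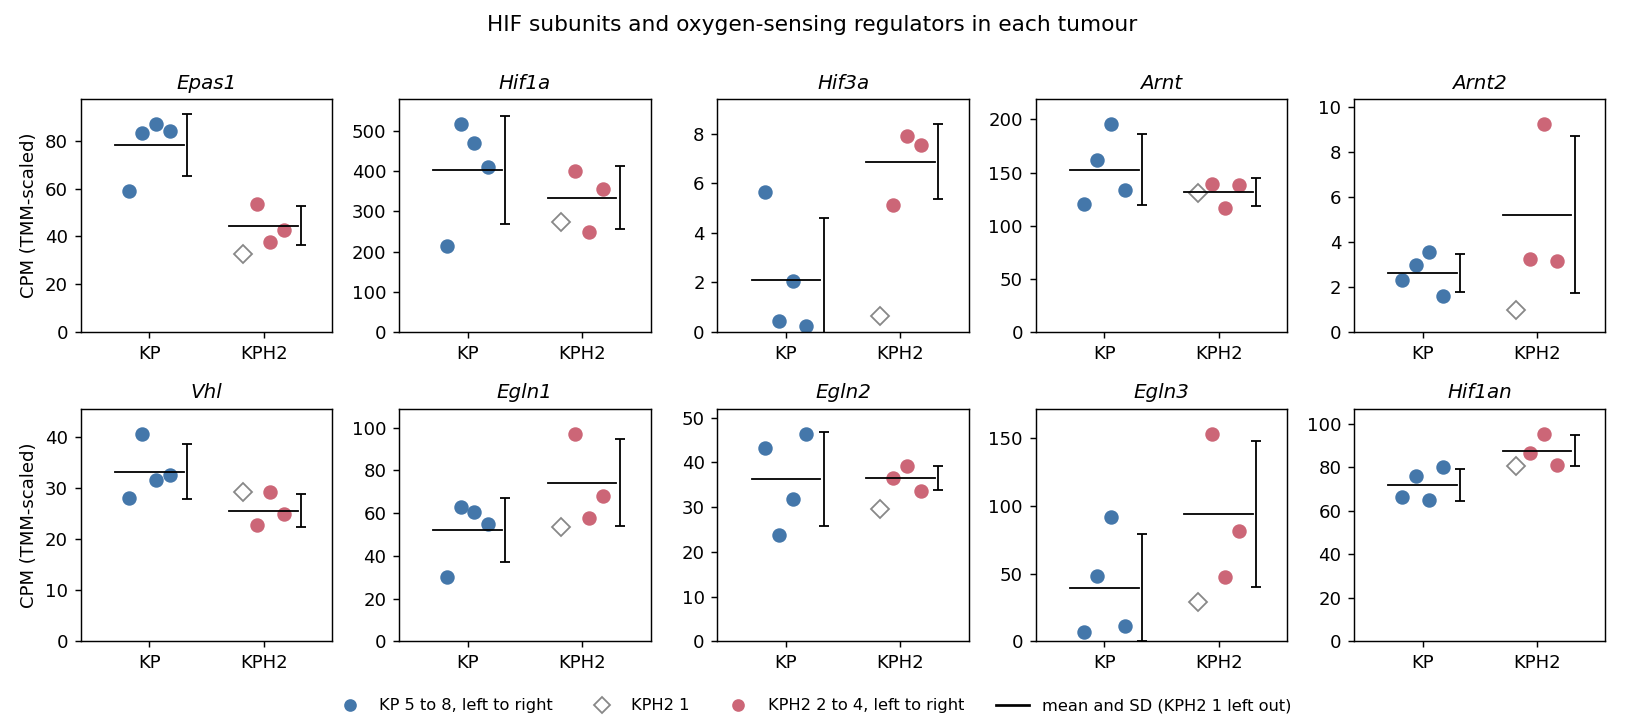
Level of each member in each tumour, in CPM on a linear axis from 0. Blue points are KP 5 to KP 8, open grey diamonds KPH2 1 and red points KPH2 2 to KPH2 4, and black lines are the mean and SD without KPH2 1. Epas1 and Hif1an are the panels in which the groups do not overlap, with Epas1 between 37.7 and 53.4 CPM in KPH2 2 to KPH2 4 and between 59.2 and 86.9 CPM in KP.

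Epas1 (Entrez Gene 13819; GRCm38 chromosome 17, 86753864 to 86833410, plus strand) is the gene targeted in KPH2 mice. It was counted at 59.2, 83.2, 86.9 and 84.1 CPM in KP 5 to KP 8, at 53.4, 37.7 and 42.5 CPM in KPH2 2 to KPH2 4, and at 32.6 CPM in KPH2 1. Every KPH2 tumour lay below every KP tumour, and the narrowest step was between KPH2 2 and KP 5, the lowest of the KP tumours. KP tumours averaged 78.3 ± 12.9 CPM (SD, n = 4), against 44.5 ± 8.02 CPM (SD, n = 3) for KPH2 2 to KPH2 4. KPH2 1 was the lowest of all at 41.6% of the KP mean, and it shares the direction of the other KPH2 tumours. These levels rest on 377 to 1114 counts per library.

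The log2 fold change of Epas1 was −0.81 (standard error 0.19, 95% confidence interval −1.26 to −0.37, adjusted p = 0.0742, edgeR) over the 7 tumours and −0.91 (standard error 0.19, adjusted p = 0.117, edgeR) over all 8. The 2-sided exact permutation test gave p = 0.0571 over the 7 tumours and 0.0286 over all 8, the smallest value the design allows. Leaving out single tumours moved the adjusted p between 0.0442 and 0.219, and it was under 0.05 without KP 5 alone (log2 fold change −0.92), where 2.4% of all genes were called. The interval over the 7 tumours spans 0.418 to 0.773 times the KP level.

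The labels and methods do not name the floxed exon. In the conditional Epas1 allele in wide use it is the second exon, which encodes part of the DNA-binding basic helix-loop-helix domain. Its sequence is given because it is the stretch that recombined cells would lack, at chr17:86797116-86797306 on the plus strand of GRCm38 (GENCODE M21), in the 5′ to 3′ direction.
Epas1 exon 2: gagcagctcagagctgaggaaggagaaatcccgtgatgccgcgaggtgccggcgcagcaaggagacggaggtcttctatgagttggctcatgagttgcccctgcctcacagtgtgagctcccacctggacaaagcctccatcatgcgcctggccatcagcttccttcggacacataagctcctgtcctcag
The exon is 191 bases long, wholly coding and not a multiple of 3, and it makes up 3.46% of the 5516-base transcript of 16 exons. Counts were deposited per gene, so reads from this exon were not separated from those of the other exons, and the values above measure how much Epas1 transcript was present, not how much of it was intact.

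Endothelial cells are a textbook site of Epas1 expression, so their markers are given beside it. The summed level of the 13 endothelial markers was 412 to 768 CPM in KP, 423 to 441 CPM in KPH2 2 to KPH2 4 and 314 CPM in KPH2 1, with none at 0 in any tumour. Of the 13, 11 had a negative log2 fold change over the 7 tumours, with a median of −0.55 over the list, and Cldn5 and Vwf had positive ones (0.39 and 0.13, named after their values were seen). Unadjusted p-values were under 0.05 for 5 of them, and 0 were called after adjustment by edgeR. Pecam1 and Cdh5, which encode adhesion proteins of endothelial junctions, had log2 fold changes of −0.78 and −0.55 (adjusted p = 0.119 and 0.426, edgeR). KP 5, with the least Epas1 among the KP tumours, also had the lowest endothelial level of that group. Across the 8 tumours the mean log2 CPM of the endothelial list and log2 CPM of Epas1 had a Pearson r of 0.89 and a Spearman rho of 0.76, as a description over libraries that share genotype and host tissue. The same list had an r of 0.82 and a rho of 0.90 with Hif1a, and 0.72 and 0.79 with Arnt. With the endothelial level as a covariate the log2 fold change of Epas1 over the 7 tumours was −0.54 (adjusted p = 0.265, edgeR).

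Marker lists of other host cells were also counted, without a covariate fit for macrophage, smooth muscle and pericyte or adipocyte markers. Over the 8 tumours Epas1 had a Pearson r of 0.81 and a Spearman rho of 0.74 with the macrophage list, and 0.73 and 0.69 with the smooth muscle and pericyte list. The 12 macrophage markers all had negative log2 fold changes, with a median of −0.55 and none past the adjustment, and summed levels of 2490 to 4529.9 CPM in KP, 1839.8 to 2758 CPM in KPH2 2 to KPH2 4 and 2342 CPM in KPH2 1. Lyz2, which encodes a lysozyme, and Mrc1, which encodes the mannose receptor, had log2 fold changes of −0.63 and −1.53 (adjusted p = 0.274 and 0.0951, edgeR). Summed levels of the 8 smooth muscle and pericyte markers were 314 to 492 CPM in KP, 323 to 654 CPM in KPH2 2 to KPH2 4 and 175 CPM in KPH2 1, with 1 called lower (Cnn1, named after its value was seen), 0 called higher and a median log2 fold change of −0.44. Among them Cspg4, of pericytes, and Des, which muscle fibres also express, had log2 fold changes of −0.75 and 1.82 (adjusted p = 0.563 and 0.106, edgeR). In adipocytes Epas1 is also expressed, but 6 of the 8 adipocyte markers were below the filter and 5 were at 0 in at least 1 tumour. The tested Fabp4 and Lipe had mean levels of 7.31 and 6.45 CPM over all 8 tumours, and log2 fold changes of −1.40 and −0.03 (adjusted p = 0.174 and 0.976, edgeR). A fit with the skeletal muscle level as a covariate gave −0.60 for Epas1 (standard error 0.33, adjusted p = 0.669, edgeR). The mean log2 CPM of that list was 3.84 to 5.47 in KP and 5.31 to 7.74 in KPH2 2 to KPH2 4. The fit thus separates muscle level and genotype poorly. The part of each host tissue in the difference in Epas1 was not tested further.

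**Figure D2:**
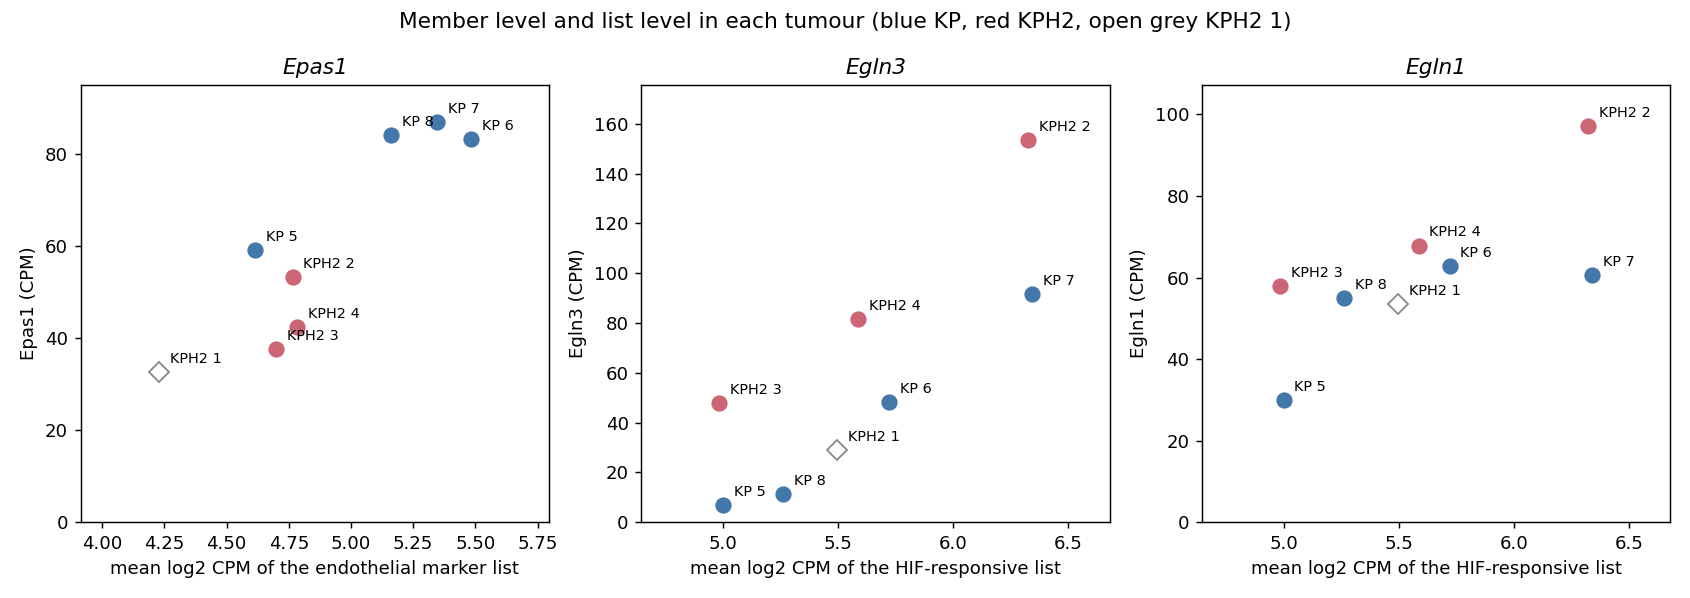
Epas1 in CPM against the mean log2 CPM of the endothelial marker list (left), and Egln3 and Egln1 in CPM against that of the list of HIF-responsive genes (centre and right), 1 point per tumour. Blue points are KP, red points KPH2 2 to KPH2 4 and open grey diamonds KPH2 1. KP 5 sits beside the KPH2 tumours on the endothelial axis and above them in Epas1, and KPH2 2 is highest for both hydroxylases.

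The 5 genes whose log2 CPM was most like that of Epas1 over the 8 tumours, of 14804 compared, were Arid3a (Pearson r 0.96), Ppp1r16b (0.96), A130022J15Rik (0.96), 4932413F04Rik (0.95) and Gm19654 (0.95), and 74 genes had an r above 0.9. Arid3a, which encodes a DNA-binding protein, averaged 29.5 ± 6.00 CPM (SD, n = 4) for KP tumours, 16.0 ± 2.57 CPM (SD, n = 3) for KPH2 2 to KPH2 4 and 15.6 CPM for KPH2 1 (log2 fold change −0.88, edgeR adjusted p = 0.0823). 4932413F04Rik and Gm19654 were near the floor, with means of 0.65 and 0.42 CPM in KPH2 2 to KPH2 4. In KPH2 1 they stood at 0.08 and 0 CPM. The 5 genes were chosen for this likeness, so their values are a description of 8 libraries.

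Hif1a (Entrez Gene 15251; chromosome 12, 73901324 to 73947554, plus strand) encodes the other widely expressed alpha subunit, HIF-1α. It was counted at 213, 516, 470.4 and 410.2 CPM in KP 5 to KP 8, at 400.02, 248 and 355 CPM in KPH2 2 to KPH2 4, and at 273 CPM in KPH2 1. KP 5 was the lowest of all 8 tumours and the other KP tumours were the highest, so the KPH2 values lay inside the KP range. Hif1a had a log2 fold change of −0.27 (standard error 0.31, interval −0.97 to 0.43, adjusted p = 0.705, edgeR), and the interval spans 0.51 to 1.35 times the KP level. The sign changed with the skeletal muscle or endothelial marker level as a covariate (0.44 and 0.42, adjusted p = 0.86 and 0.435, edgeR). Hif1a shared 330 exon bases with the antisense transcript Gm15283 and 148 with Gm49321 on its own strand, neither of which is in the counts table. Reads of the bases shared with Gm49321 cannot be told apart, nor, without strand in the counting, can those shared with Gm15283.

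Hif3a (Entrez Gene 53417; chromosome 7, 17030993 to 17062427, minus strand) encodes an alpha subunit with short splice forms that inhibit HIF. Its levels were 5.64, 0.424, 2.08 and 0.226 CPM in KP 5 to KP 8, 5.13, 7.91 and 7.55 CPM in KPH2 2 to KPH2 4, and 0.639 CPM in KPH2 1. In counts these were 76, 3, 14 and 3, then 57, 79 and 67, and 8. KP 5 and KPH2 1 each lay with the other genotype. Hif3a had a log2 fold change of 1.66 (standard error 0.86, interval −0.32 to 3.65, adjusted p = 0.365, edgeR) over the 7 tumours, 1.30 (edgeR adjusted p = 0.574) over all 8 and 3.03 (adjusted p = 0.0757, edgeR) without KP 5. Its log2 CPM had a Pearson r of 0.67 and a Spearman rho of 0.74 with the mean level of the skeletal muscle markers over the 8 tumours, and a fit with their level as a covariate gave 1.08 (adjusted p = 0.869, edgeR).

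The balance of the alpha subunits can be read within each tumour, without scaling between libraries. Hif1a and Epas1 counts gave a log2 ratio of Epas1 to Hif1a of −1.85, −2.63, −2.44 and −2.29 in KP 5 to KP 8, of −2.91, −2.72 and −3.06 in KPH2 2 to KPH2 4, and of −3.07 in KPH2 1. The groups did not overlap. KP tumours averaged −2.30 ± 0.33 (SD, n = 4), against −2.90 ± 0.17 (SD, n = 3) for KPH2 2 to KPH2 4, a difference of −0.59 (2-sided exact permutation test, p = 0.0571). With KPH2 1 the difference was −0.64 (exact permutation test, p = 0.0286, the smallest possible). On the authors' regularized log2 values for 7 tumours it was −0.37 (exact permutation test, p = 0.0571). Per kilobase of exon, Hif1a exceeded Epas1 by 4.09 to 7.06 times in KP and by 7.48 to 9.52 times in KPH2 tumours, KPH2 1 included. Epas1 made up 12.4% to 19.3% of the summed per-kilobase level of the 3 alpha subunits in KP and 9.37% to 11.6% in KPH2 tumours. Hif3a made up at most 2.05% in any tumour.

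**Figure D3:**
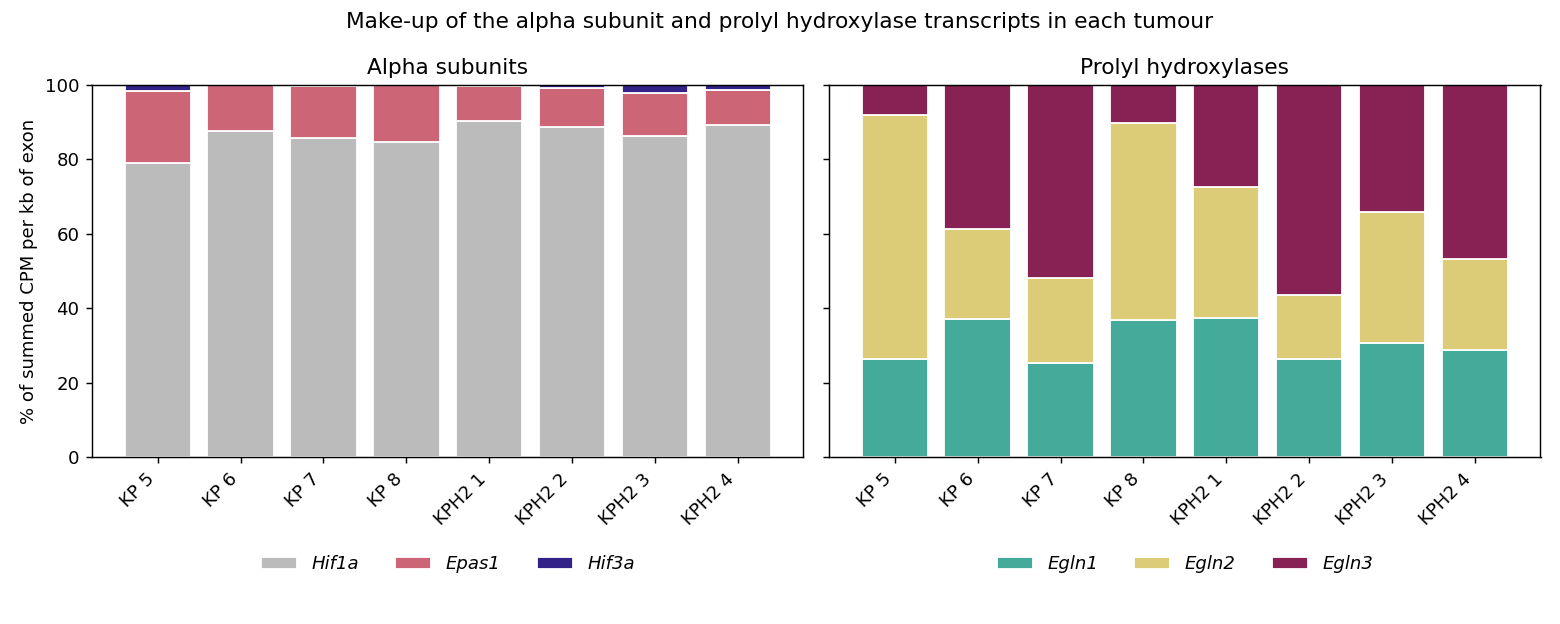
Share of each alpha subunit (left) and of each prolyl hydroxylase (right) in the summed CPM per kilobase of exon of its family, as stacked bars per tumour. Hif1a fills 79.1% to 90.4% of the alpha bars, with the Epas1 band narrower in every KPH2 tumour than in every KP tumour, and the Egln3 band ranges from 8.10% in KP 5 to 56.5% in KPH2 2.

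Arnt (Entrez Gene 11863; chromosome 3, 95434367 to 95497240, plus strand), the shared beta subunit, was counted at 120.5, 161, 195 and 134 CPM in KP 5 to KP 8, at 139, 117 and 139 CPM in KPH2 2 to KPH2 4, and at 131 CPM in KPH2 1. The KPH2 values lay within or just below the KP range. Its log2 fold change was −0.22 (standard error 0.19, interval −0.65 to 0.22, adjusted p = 0.608, edgeR), with the other sign when the skeletal muscle or endothelial marker level was a covariate (0.18 and 0.066). Arnt2 (Entrez Gene 11864; chromosome 7, 84246274 to 84411741, minus strand), a beta subunit best known from neural tissue, stood at 2.30, 2.97, 3.56 and 1.58 CPM in KP 5 to KP 8, at 3.24, 9.21 and 3.16 CPM in KPH2 2 to KPH2 4, and at 0.959 CPM in KPH2 1. KPH2 3 alone stood above the KP range, and KPH2 1 was below it. Arnt2 differed by a log2 fold change of 1.02 (standard error 0.47, interval −0.06 to 2.10, adjusted p = 0.31, edgeR), 0.32 (adjusted p = 0.791) without KPH2 3 and 0.68 (adjusted p = 0.647) over all 8 tumours. Of its exon bases, 214 are shared with the antisense transcript Gm30873, which is not in the counts table.

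Vhl (Entrez Gene 22346; chromosome 6, 113623994 to 113631634, plus strand) encodes the substrate-binding subunit of the ligase that marks the hydroxylated alpha subunits for degradation. It was counted at 28.0, 40.6, 31.6 and 32.6 CPM in KP 5 to KP 8, at 22.8, 29.1 and 24.8 CPM in KPH2 2 to KPH2 4, and at 29.3 CPM in KPH2 1. KP 5 lay within the KPH2 range and the other KP tumours lay above it. For Vhl the log2 fold change was −0.38 (standard error 0.18, interval −0.79 to 0.03, adjusted p = 0.318, edgeR; exact permutation test, p = 0.0857). A fit with the endothelial marker level as a covariate gave −0.18 (adjusted p = 0.756, edgeR). Over the 8 tumours Vhl had a Pearson r of 0.72 and a Spearman rho of 0.74 with the macrophage marker level.

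Among 12 genes of the ligase and of related enzymes that act on the alpha subunits or on VHL, 11 were tested, 7 had a positive and 4 a negative log2 fold change, with a median of 0.09, and none was called in either direction. The cullin scaffold Cul2 and the elongin genes Tceb1 and Tceb2 had log2 fold changes of 0.01, 0.18 and 0.26 (named after their values were seen). The smallest p-values of this list belonged to Usp20 and Os9. Usp20, which encodes a deubiquitinase that acts on HIF-1α, was counted at 27.2, 20.1, 22.7 and 18.3 CPM in KP 5 to KP 8 and at 33.8, 36.5 and 39.9 CPM in KPH2 2 to KPH2 4, with KPH2 1 at 22.1 CPM inside the KP range (log2 fold change 0.73, adjusted p = 0.0768, edgeR). Os9, which encodes a lectin of the endoplasmic reticulum, was at 91.3 ± 12.4 CPM (SD, n = 4) in KP, 66.3 ± 1.53 CPM (SD, n = 3) in KPH2 2 to KPH2 4 and 84.7 CPM in KPH2 1 (log2 fold change −0.46, adjusted p = 0.15, edgeR).

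The prolyl hydroxylases are the oxygen sensors of the pathway, and their promoters are shown because HIF itself induces Egln1 and Egln3. The sequences are the 250 bases before each gene's RefSeq start on GRCm38, 5′ to 3′ along the minus strand, where all 3 genes lie, with the core of the hypoxia response element in capitals. The core searched was ACGTG or GCGTG on either strand, so that CACGT or CACGC in capitals is a match on the opposite strand. The windows lie at chr8:124949255-124949504 for Egln1, chr7:27166803-27167052 for the first of the pair of Egln2 start sites, and chr12:54203875-54204124 for Egln3.
Egln1 promoter: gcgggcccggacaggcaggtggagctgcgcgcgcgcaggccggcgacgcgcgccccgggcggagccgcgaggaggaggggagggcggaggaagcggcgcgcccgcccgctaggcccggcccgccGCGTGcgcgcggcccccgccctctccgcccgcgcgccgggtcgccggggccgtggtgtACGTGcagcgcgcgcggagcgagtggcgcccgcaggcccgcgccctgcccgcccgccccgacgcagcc
Egln2 promoter: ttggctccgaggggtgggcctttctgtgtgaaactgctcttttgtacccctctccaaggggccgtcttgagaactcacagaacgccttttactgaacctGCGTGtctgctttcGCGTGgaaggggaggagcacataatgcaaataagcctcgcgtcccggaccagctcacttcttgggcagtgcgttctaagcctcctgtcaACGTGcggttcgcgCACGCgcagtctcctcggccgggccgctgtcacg
Egln3 promoter: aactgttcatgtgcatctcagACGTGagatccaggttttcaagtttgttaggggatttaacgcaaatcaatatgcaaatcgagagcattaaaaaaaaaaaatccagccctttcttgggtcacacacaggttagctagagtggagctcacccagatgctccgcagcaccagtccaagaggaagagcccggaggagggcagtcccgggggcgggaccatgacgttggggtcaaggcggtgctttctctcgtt
There were 2 matches for Egln1, 4 for Egln2 and 1 for Egln3, and the window of the other Egln2 start site held 1. The same windows held 2 matches for Hif3a, 2 places for Hif1a, 1 match for Arnt and 0 for Arnt2, Vhl and Hif1an. At least 1 match was present in 38.6% of the 32851 promoter windows of the same length and at least 2 in 13.5%, so a match describes the letters and not a binding site. The Epas1 promoter was not analysed here.

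Egln1 (Entrez Gene 112405; chromosome 8, 124908587 to 124949254, minus strand), encoding PHD2, the main prolyl hydroxylase in most cells, was counted at 29.9, 62.8, 60.6 and 54.9 CPM in KP 5 to KP 8, at 97.1, 57.8 and 67.8 CPM in KPH2 2 to KPH2 4, and at 53.5 CPM in KPH2 1. KPH2 2 was the highest and KP 5 the lowest, and the other 6 tumours lay within 53.5 to 67.8 CPM. Egln1 had a log2 fold change of 0.51 (standard error 0.28, interval −0.13 to 1.16, adjusted p = 0.394, edgeR), which was 0.27 (adjusted p = 0.735) without KPH2 2 and 1.10 (adjusted p = 0.107) with the endothelial marker level as a covariate.

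Egln3 (Entrez Gene 112407; chromosome 12, 54178981 to 54203874, minus strand), encoding PHD3, a strongly hypoxia-induced enzyme, was counted at 6.76, 48.4, 91.8 and 11.2 CPM in KP 5 to KP 8, at 153.6, 47.7 and 81.6 CPM in KPH2 2 to KPH2 4, and at 28.9 CPM in KPH2 1. The highest KP tumour had 13.6 times the level of the lowest, and the groups overlapped. KP tumours averaged 39.5 ± 39.5 CPM (SD, n = 4), against 94.3 ± 54.0 CPM (SD, n = 3) for KPH2 2 to KPH2 4, or 239% of the KP mean. Egln3 had a log2 fold change of 1.27 (standard error 0.83, interval −0.65 to 3.19, adjusted p = 0.482, edgeR), 2.12 (adjusted p = 0.243) without KP 7 and 0.72 (adjusted p = 0.784) without KPH2 2. With the endothelial or skeletal muscle marker level as a covariate it was 3.39 or 4.09 (adjusted p = 0.132 and 0.525, edgeR).

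Egln2 (Entrez Gene 112406; chromosome 7, 27158658 to 27166802, minus strand), encoding PHD1, was counted at 43.2, 23.8, 31.7 and 46.4 CPM in KP 5 to KP 8, at 36.5, 39.2 and 33.7 CPM in KPH2 2 to KPH2 4, and at 29.7 CPM in KPH2 1. It ran in the other direction from Egln3 among the KP tumours, with KP 5 and KP 8 high in Egln2 and low in Egln3. Egln2 had a log2 fold change of 0.00 (standard error 0.24, interval −0.54 to 0.54, adjusted p = 0.997, edgeR). It shares 11 exon bases with Cyp2t4 on the opposite strand. As a share of the per-kilobase level of the 3 hydroxylases, Egln2 made up 65.4% in KP 5 and 53.1% in KP 8 but 24.0% and 22.7% in KP 6 and KP 7, while Egln1 kept within 25.4% to 37.4% in all 8 tumours.

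Arnt, Egln3, Hif1a and Egln1 were the members that varied most closely with the level of a list of 22 genes known to respond to HIF, such as Vegfa, Slc2a1, Ldha and Bnip3. The list's mean log2 CPM was 5.0, 5.72, 6.34 and 5.26 in KP 5 to KP 8, 6.32, 4.98 and 5.59 in KPH2 2 to KPH2 4, and 5.50 in KPH2 1, so KP 7 and KPH2 2 were the highest and KP 5 and KPH2 3 the lowest. Over the 8 tumours its Pearson r was 0.79 with Arnt, 0.77 with Egln3, 0.72 with Hif1a, 0.70 with Egln1, 0.33 with Epas1 and −0.45 with Egln2, and its Spearman rho for the same genes was 0.95, 0.81, 0.74, 0.67, 0.43 and −0.60, given as a description of 8 libraries. Of the 22 genes, 11 were higher and 11 lower in KPH2 2 to KPH2 4, none was called, and the median log2 fold change was 0.03, and −0.05 over all 8 tumours. Car9, a carbonic anhydrase induced by hypoxia, and Pdk1, a kinase that restrains pyruvate dehydrogenase, had the smallest p-values, with log2 fold changes of 1.17 and 0.84 (adjusted p = 0.184 and 0.202, edgeR). Car9 was at 8.17, 6.65, 7.41 and 4.91 CPM in KP 5 to KP 8 and at 23.8, 6.40 and 15.8 CPM in KPH2 2 to KPH2 4, with KPH2 1 at 8.87 CPM, so KPH2 3 lay among the KP tumours.

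Hif1an (Entrez Gene 319594; chromosome 19, 44562854 to 44576274, plus strand) encodes the asparaginyl hydroxylase that restrains the transactivation domain of the alpha subunits. It was counted at 66.2, 76.1, 64.8 and 79.9 CPM in KP 5 to KP 8, at 86.6, 95.4 and 80.9 CPM in KPH2 2 to KPH2 4, and at 80.3 CPM in KPH2 1. Every KPH2 tumour lay above every KP tumour, by as little as 80.3 against 79.9 CPM, and it was the least variable member, with the highest tumour 1.47 times the lowest. Hif1an had a log2 fold change of 0.29 (standard error 0.14, interval −0.04 to 0.61, adjusted p = 0.338, edgeR), and the exact permutation test gave p = 0.0571 over the 7 tumours and 0.0286 over all 8. Its Pearson r and Spearman rho with the mean level of the skeletal muscle markers were both 0.69 across the 8 tumours, and a fit with that level as a covariate gave 0.17 (adjusted p = 0.91, edgeR). Epas1 and Hif1an were the 2 members whose groups did not overlap in CPM, with or without KPH2 1. Among all tested genes 16.9% had groups that did not overlap over the 7 tumours and 8.15% over all 8.

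**Figure D4:**
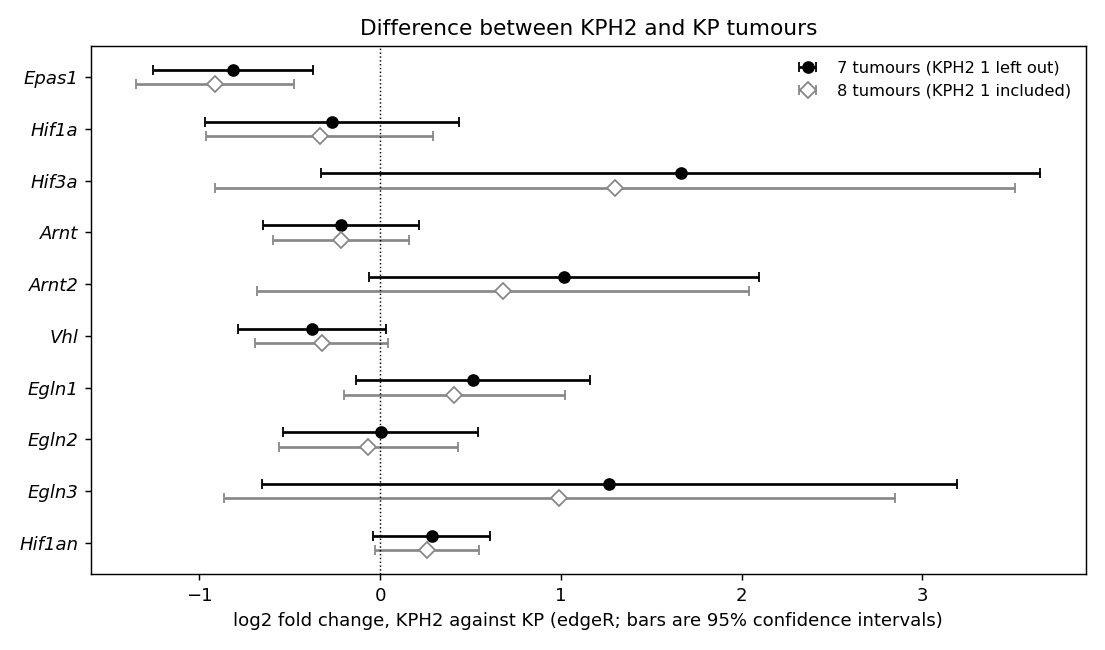
Log2 fold change of each member in KPH2 against KP tumours from edgeR, with 95% confidence intervals, over 7 tumours (black circles) and over all 8 (open grey diamonds). The interval of Epas1 lies wholly below 0 in both sets, −1.26 to −0.37 over the 7 tumours, and the intervals of the other 9 members cross 0, most widely for Hif3a and Egln3.

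Coactivators and chaperones of the alpha subunits were counted beside the members. Of 12 such genes 10 were tested, 8 were higher and 2 lower in KPH2 2 to KPH2 4, none was called, and the median log2 fold change was 0.09. Hsp90ab1 and Hsp90aa1, which encode the HSP90 chaperone that binds alpha subunits, had the smallest p-values. Hsp90ab1 was counted at 1061, 1326, 1075 and 1091 CPM in KP 5 to KP 8, at 2008, 1489 and 1728 CPM in KPH2 2 to KPH2 4, and at 1848 CPM in KPH2 1, without overlap between the groups (log2 fold change 0.61, adjusted p = 0.119, edgeR). Hsp90aa1 had a log2 fold change of 0.40 (adjusted p = 0.237, edgeR). The genes of the coactivators p300 and CBP, Ep300 and Crebbp, had log2 fold changes of 0.07 and 0.01 (named after their values were seen).

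Levels can be compared between members per kilobase of exon, as medians over the 8 tumours. Hif1a led at 77.9 CPM per kilobase and Arnt followed at 31.1, with Hif1a above Arnt in 8 of 8 tumours. Egln3, Egln2 and Egln1 stood at 18.1, 16.7 and 16.5, Hif1an at 12.9, Vhl at 10.5 and Epas1 at 10.2, and neighbours in this order overlapped in range. Egln3 was above Egln2 in 4 of 8 tumours. The place of Epas1 differed by genotype, which medians over both groups hide. Epas1 was above Hif1an and above Vhl in 4 of 4 KP tumours, by as little as 10.73 against 10.68 for Hif1an in KP 5 and 15.08 against 14.54 for Vhl in KP 6. It was below Hif1an in 4 of 4 KPH2 tumours and below Vhl in 3 of 4, all but KPH2 2. In KP tumours Epas1 stood at 14.2 ± 2.33 CPM per kilobase (SD, n = 4) and Vhl at 11.9 ± 1.90 (SD, n = 4), whereas in KPH2 2 to KPH2 4 Epas1 stood at 8.07 ± 1.45 (SD, n = 3) and Vhl at 9.16 ± 1.16 (SD, n = 3). Hif3a and Arnt2 were far lower at 0.554 and 0.498, with ranges that did not reach Epas1.

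The authors' regularized log2 values gave the same directions for Epas1. Its mean was 9.43 in KP and 8.92 in KPH2 over the 7-tumour table, a difference of −0.51 (exact permutation test, p = 0.0571), and 9.50 and 8.78 over the 8-tumour table, a difference of −0.72 (exact permutation test, p = 0.0286). Hif1an differed by 0.19 and 0.21 on the same scale, which shrinks low counts toward their mean (exact permutation tests, p = 0.0571 in both tables). For 8 tumours that p is above the 0.0286 that separate groups would give, so the groups of Hif1an overlapped on this scale.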

How the data were processed

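Stranded libraries were made from RNA of FFPE (formalin-fixed, paraffin-embedded) tumour sections after removal of ribosomal RNA. The authors aligned reads to GRCm38 with STAR 2.4 and deposited raw counts per RefSeq gene from htseq-count 0.6.1, whose strand setting is not given in the sources used here. The authors also deposited log2 values from the regularized log transformation of DESeq2 1.6, for 7 and for 8 tumours, in which genes with low counts are drawn toward their mean. No tumour number occurs in both groups, so no pairing was made, and p-values measure the spread between tumours.

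Counts were tested in R 4.3.3 with edgeR 4.0.16 (TMM scaling, filter at a minimum count of 10 and total of 15, robust quasi-likelihood test, Benjamini-Hochberg adjustment over all tested genes, threshold 0.05). Log2 CPM used a prior count of 2. Single values were compared with exact permutation tests over the 35 or 70 assignments of tumours to groups, or fewer where a tumour was left out. Spearman rho was computed in SciPy 1.17.1. DESeq2 1.42.0, other scalings, filters, covariates and tumours left out were the alternatives. Exon lengths came from GENCODE M21 transcripts matched to RefSeq and promoters from the RefSeq table for GRCm38.

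The rule that names the members uses no measured value, but the members, the lists and the tests were chosen with earlier results of these data known. The genes named beside the members are, for each pathway list, those called or else the 2 with the smallest p, for each marker list the 2 with the highest mean CPM, and the 5 genes most like Epas1 by Pearson r. A further allele that both groups carry is not reported here.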

Additional observations from a re-analysis of the deposited data

Results flagged for a closer look

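In KP tumours Epas1 stood at 59.2 CPM in KP 5, against 83.2 to 86.9 CPM in KP 6, KP 7 and KP 8. The gap from KP 5 to the nearest of the others was 0.867 of the range of the group, above Dixon's 95% critical value for 4 samples. It was the 1 value singled out among 22 groups examined in this way, and chance flags about 1 in 20 groups. KP 5 had the largest library of the 8 and the lowest level of Hif1a, Egln1 and Egln3, and its endothelial marker sum of 412 CPM was the lowest among KP tumours. Their part in the value was not tested.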

How the results depend on the processing

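The number of genes called by edgeR over the 7 tumours, 292, fell to 1 over all 8 tumours, to 3 with the skeletal muscle marker level as a covariate and to 106 with the endothelial marker level, and ranged from 55 (without KPH2 2) to 349 (without KP 5) with single tumours left out. The skeletal muscle level goes largely with genotype, and the fit with it raised the standard error of Epas1 from 0.19 to 0.33. DESeq2 called 1166 genes, 1169 with a prior on fold changes and 641 over all 8 tumours. The number of members called, 0 of 10, was 1, always Epas1, with total counts as library sizes, with DESeq2, with DESeq2 and a prior, with DESeq2 over all 8 tumours and without KP 5, and 0 to 1 with single tumours left out. In these fits the log2 fold change of Epas1 was −0.90 (total counts), −0.81 (DESeq2), −0.77 (DESeq2 with a prior) and −0.91 (DESeq2 over all 8 tumours), with −0.96 to −0.71 over single tumours left out and −0.51 on the authors' regularized log2 values for 7 tumours. Over 19 alternative fits its adjusted p ran from 0.00577 to 0.669, and its sign held in all 19. The difference in log2 Epas1 to Hif1a ratio, −0.59, was −0.64 over all 8 tumours (exact permutation p = 0.0286). On the authors' values it was −0.50 for 8 tumours (exact permutation p = 0.0286) and −0.37 for 7 (exact permutation p = 0.0571). With single tumours left out it ran from −0.71 to −0.44. There the exact permutation p was 0.1 without a KP tumour, the smallest those sets allow, and 0.133 without a KPH2 tumour.

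Signs changed for Hif1a (0.44 with the skeletal muscle and 0.42 with the endothelial covariate) and Arnt (0.18 and 0.066). The value of Egln2, near 0, turned to −0.065 over all 8 tumours, −0.072 with total counts, −0.0020 with a mean count of at least 50, −0.46 and −0.31 with the skeletal muscle and endothelial covariates, −0.063 with DESeq2 over all 8 tumours, and −0.15 to 0.14 with single tumours left out. The cause was not tested. The other 7 members, Epas1 included, kept their sign in all 19 alternative fits, or 18 for Hif3a and Arnt2, which a mean count of at least 50 left out. No paired analysis was possible because the groups share no replicate number. With 3 or 4 tumours a group, the 95% confidence intervals of Hif3a and Egln3 allow both no change and several-fold higher levels in KPH2 tumours.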
